A study of Mus musculus with 6 samples.

Results

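The genes examined were 10 imprinted genes of the growing testis. They were found by annotation, and a probe set counted when its only gene symbol was Igf2, Peg3, Mest, Dlk1, H19, Igf2r, Meg3, Grb10, Gnas or Cdkn1c. This gave 29 probe sets of 9 of the 10 genes, out of 15964 genes with a probe set of their own on the 3 chips. H19 had none, because the probe set that carries its name on U74Av2 also carries that of the microRNA gene Mir675. The arrays held total RNA labelled as from spermatogonia, the germ cells that divide by mitosis and found spermatogenesis. The Null mice, labelled as a Zfp145 knock out, and the WT mice were 1 week old, and the labels of both give a mixed 129sv and C57Bl/6 background (written 129sv/c57Bl6 for U74Av2). Zfp145, now named Zbtb16, encodes the transcriptional repressor PLZF of undifferentiated spermatogonia. The Affymetrix chips U74Av2, U74Bv2 and U74Cv2 were used, with 1 Null and 1 WT array per chip. With no replicate among the 6 arrays, no p-value is given, and the number of arrays limits the precision. The labels do not say how the cells were isolated, how many animals contributed, which part of the gene was disrupted or whether the 3 chips received the same RNA.

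An imprinted gene is transcribed mainly from the copy inherited from 1 parent, because DNA methylation placed in the parental germ line tells the copies apart. The methylated copy is the silent one at some imprinted genes and the active one at others. In the male germ line the inherited marks are erased in primordial germ cells, and paternal marks are laid down again in prospermatogonia before birth, so spermatogonia carry the paternal pattern. Many paternally expressed genes promote fetal growth and many maternally expressed ones restrain it. The arrays measure the total transcript and cannot tell the parental copies apart.

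Dlk1 and Meg3 are neighbours on chromosome 12, with 2 annotated genes between them, and are expressed from opposite parental copies. Their promoters are shown because the results below set this pair side by side. Both run from 250 bases before the annotated start to 50 after it, come from RefSeq on GRCm38.p6, and are written 5′ to 3′ with each CG dinucleotide, the site of DNA methylation, in capitals.
Dlk1, chr12:109452573-109452872, plus strand: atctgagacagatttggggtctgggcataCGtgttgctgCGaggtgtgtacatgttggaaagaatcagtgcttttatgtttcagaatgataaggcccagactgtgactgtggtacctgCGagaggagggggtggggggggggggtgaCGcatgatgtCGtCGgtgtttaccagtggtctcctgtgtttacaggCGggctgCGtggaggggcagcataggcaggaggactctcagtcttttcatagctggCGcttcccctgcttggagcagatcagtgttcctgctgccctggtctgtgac
Meg3, chr12:109540746-109541045, plus strand: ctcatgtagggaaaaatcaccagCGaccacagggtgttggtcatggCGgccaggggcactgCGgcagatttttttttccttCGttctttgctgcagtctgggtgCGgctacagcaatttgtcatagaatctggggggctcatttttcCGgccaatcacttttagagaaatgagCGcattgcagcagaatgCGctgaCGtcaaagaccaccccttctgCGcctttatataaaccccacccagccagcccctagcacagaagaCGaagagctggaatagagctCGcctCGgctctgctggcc
The Dlk1 window held 9 CG dinucleotides and the Meg3 window 13, and 45.8% and 37.9% of the 32851 promoters in the table had at least as many (a CG reads the same on both strands). Among the 18 promoters listed for 8 of the genes the count ran from 1, at a second start of Meg3, to 45, at a Grb10 start. These counts describe the reference sequence, and methylation was not measured.

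H19 has no value of its own here. The hairpin of Mir675 lies inside the annotated span of H19, a long noncoding RNA expressed from the maternal copy, and the annotation gives 1 probe set to both genes. Where within the span of H19 its probes lie is not known. The mature microRNAs are printed with their seed, bases 2 to 8, in capitals, from RefSeq on GRCm38.p6, minus strand of chromosome 7.
mmu-miR-675-5p, chr7:142577112-142577133: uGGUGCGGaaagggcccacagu
mmu-miR-675-3p, chr7:142577078-142577099: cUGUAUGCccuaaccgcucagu

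No imprinted member measured on both arrays of a chip differed 2-fold between Null and WT, and for 1 Meg3 probe set, at least 1.61-fold lower in Null, only a bound could be given. With the floor at the 20th percentile that probe set had a log2 ratio of -1.77, past 2-fold. Signal was above the chip's floor, the 40th percentile of both arrays, on both arrays for 15 of the 29 probe sets, and these covered all 9 genes. For 1 further probe set it was above the floor on the WT array alone, and the other 13 lay at or below the floor on both and give no ratio. On U74Av2 0 of 11 member probe sets above the floor on at least 1 array were 2-fold different, where 0.908% of all such probe sets on the chip were. On U74Bv2 this was 0 of 1 against 1.82%, and on U74Cv2 0 of 4 against 11.2%. With shares this small on U74Av2 and U74Bv2, a count of 0 among so few probe sets is near the background and sets the members apart from nothing.

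At 1.5-fold, 1 of 11 member probe sets passed on U74Av2, against 7.34% of all, and it was lower in Null. None of 1 passed on U74Bv2, against 11.4% of all, and 2 of 4 passed on U74Cv2, against 27.5% of all, 1 higher and 1 lower. Of the 15 measured on both arrays, 12 had a log2 ratio of Null over WT above 0 and 3 below, with a median of 0.26, while the median of all measured probe sets lay between -0.01 and 0.00 on the 3 chips. The ratios of the 9 bacterial and phage hybridisation controls had a median between 0.24 and 0.29, depending on the chip, and those of the 18S rRNA controls one between 0.46 and 0.47. By chip the members' medians were 0.19 on U74Av2, 0.52 on U74Bv2 (a single probe set) and 0.43 on U74Cv2. Both kinds of control were thus higher on the Null arrays too, and their part in the members' median was not tested.

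How far probe sets of 1 gene differ in ratio, taken over the whole chip, is called the spread here and is the only repeat measurement. It narrowed with signal, to a log2 value of 0.15 at high level from 0.35 at low level on U74Av2, and was widest on U74Cv2, with 0.59 at low level. Variation between animals is not part of it. Past it were 8 of the 15 member probe sets, 6 higher and 2 lower in Null. By chip these were 6 of 11, against 38.4% of all probe sets on U74Av2, 1 of 1, against 34.6% on U74Bv2, and 1 of 3, against 32.7% on U74Cv2.

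**Figure D1:**
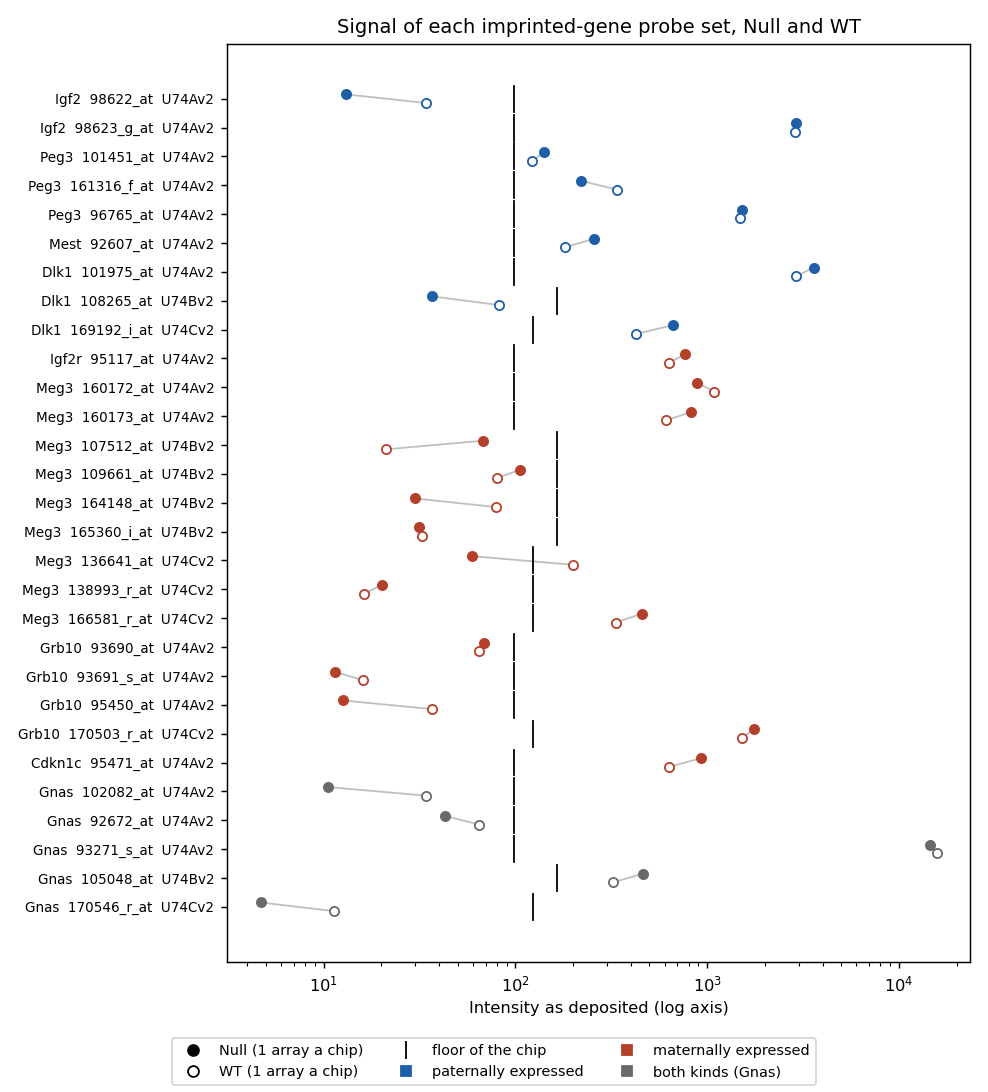
Deposited intensity (log axis) of the 29 probe sets of the imprinted genes on the Null array (filled, upper point of each row) and the WT array (open, lower point), 1 array each; the vertical tick is the floor of the chip and the colour the parental class. The brightest Gnas probe set lies at 14526.3 on the Null array and 15753.4 on the WT array, and 13 rows lie left of their tick with both points.

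In their brightest probe sets the paternally expressed genes had log2 ratios of 0.01 to 0.49, and 1 dimmer Peg3 probe set stood at -0.63. Igf2, the fetal growth factor that signals through the IGF1 and insulin receptors, read 2896.2 on the Null array and 2858.9 on the WT array of U74Av2, a log2 ratio of 0.01 against a spread of 0.15. The signal lay at the 95.5th percentile of its array in Null and the 95.4th in WT. A second Igf2 probe set designed on the same GenBank entry read 13.1 in Null and 34.1 in WT, both under the floor of 98.3. The bright and the dim probe set of Igf2 therefore cannot be compared for direction.

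Dlk1, a transmembrane protein related to Notch ligands that marks immature and progenitor cells, read higher in Null in both probe sets that measured it. On U74Av2 it read 3597.9 in Null and 2915.9 in WT, a log2 ratio of 0.29 and a 1.23-fold difference, at a spread of 0.15. On U74Cv2 it read 661.1 in Null and 426 in WT, a log2 ratio of 0.61 at a spread of 0.48. Its remaining probe set, on U74Bv2, lay under the floor at 36.8 in Null and 82.3 in WT. Both measured ratios of Dlk1 were past the spread, and neither reached 2-fold.

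Peg3, a zinc finger protein that acts on growth and maternal behaviour in mice, gave ratios that did not go the same way. Its brightest probe set read 1526 in Null and 1489.8 in WT, a log2 ratio of 0.03. The dimmest read 141 in Null and 122.8 in WT, a ratio of 0.19 within the spread of 0.35. The one of intermediate signal read 221.1 in Null and 339.5 in WT, a ratio of -0.63. That value was past the spread, comes from a probe set whose suffix can mark sharing between transcripts, and became a bound of -0.20 with the floor at the 60th percentile. The ratio of Peg3 therefore depends on the probe set.

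Mest, an enzyme of the alpha/beta hydrolase fold family that is abundant in fetal mesoderm, had 1 probe set. It read 257.8 in Null and 181.8 in WT, a log2 ratio of 0.49 at a spread of 0.35. The signal was modest, at the 57.5th percentile of the Null array and the 50.6th of the WT array.

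Among the maternally expressed genes, Igf2r, the receptor that takes IGF2 up for degradation in lysosomes, read 766.2 in Null and 636.3 in WT on U74Av2. Its log2 ratio of 0.26 was not past the spread of 0.26. The ligand Igf2, at 0.01, and its clearance receptor thus both stayed within the spread between probe sets.

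Cdkn1c, the cyclin-dependent kinase inhibitor p57 that holds cells out of the cell cycle, had the highest ratio among the brightest probe sets of the 9 genes. It read 928.1 in Null and 636.3 in WT on U74Av2, a log2 ratio of 0.54 and a 1.45-fold difference, at a spread of 0.26. No second probe set on the chips bears its symbol alone. The 10th to 90th percentile of all measured ratios on this chip ran from -0.37 to 0.36, so Cdkn1c lay outside it and Igf2r inside.

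Grb10, an adaptor that dampens insulin and IGF receptor signalling, was measured by 1 of its 4 probe sets. On U74Cv2 that probe set read 1746.8 in Null and 1525.6 in WT, a log2 ratio of 0.17 at a spread of 0.31. The 3 on U74Av2 lay under the floor, between 11.4 and 68.6 in Null and between 16 and 64.7 in WT. The level of Grb10 therefore rests on a single probe set whose suffix marks a relaxed design.

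Meg3, a long noncoding RNA, had the most probe sets, and they disagreed. The brightest on U74Av2 read 888.2 in Null and 1092.7 in WT, a log2 ratio of -0.31 at a spread of 0.15. Another on the same chip read 828.3 in Null and 610.8 in WT, a ratio of 0.43 at a spread of 0.26. Both were past the spread, in opposite directions, on the same pair of arrays. On U74Cv2 the brightest read 455.2 in Null and 333 in WT, a ratio of 0.43 within the spread of 0.48. Another there read 59.4 in Null, under the floor of 124, and 199.5 in WT, so that it was at least 1.61-fold lower in Null. The other 5 probe sets, 4 of them on U74Bv2, were at the floor on both arrays. No direction can be given for Meg3, so the Dlk1 and Meg3 pair cannot be ordered by its ratios either.

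Gnas encodes the stimulatory G protein alpha subunit together with transcripts expressed from the maternal and from the paternal copy, and was kept apart from both classes. The brightest probe set read 14526.3 in Null and 15753.4 in WT on U74Av2, a log2 ratio of -0.13 within the spread of 0.15. It stood at the 99.6th percentile of both arrays. On U74Bv2 another read 465.6 in Null and 322.7 in WT, a ratio of 0.52 at a spread of 0.35. The remaining 3 lay under the floor, between 4.7 and 42.7 in Null and between 11.3 and 64.9 in WT. The annotation does not say which of the Gnas transcripts each probe set reads.

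**Figure D2:**
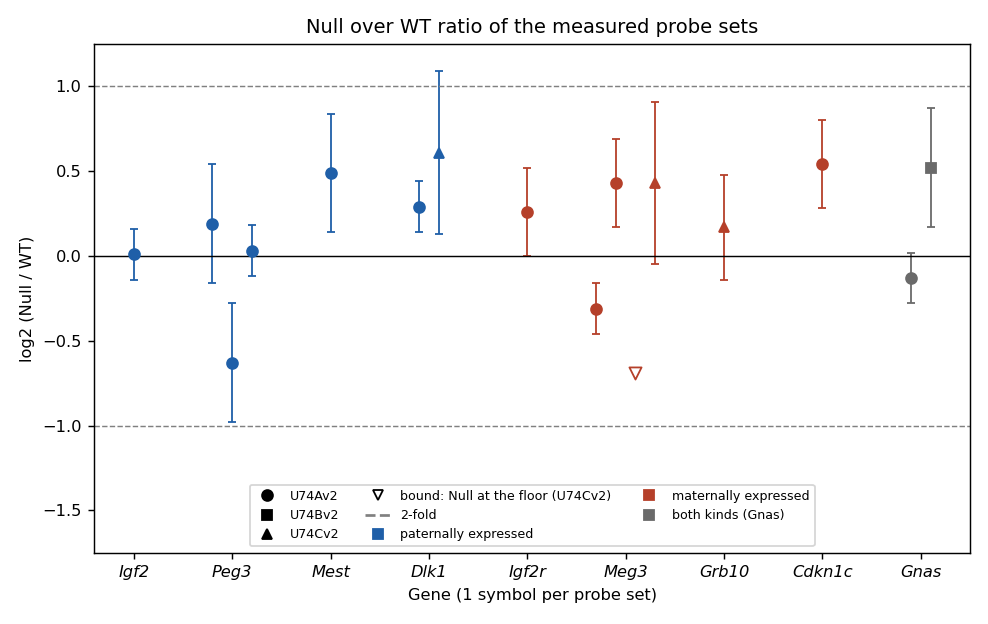
Log2 ratio of Null over WT for each measured probe set of the 9 genes; bars are the spread between probe sets of a gene at that level (no replicate error exists), symbols give the chip and colours the parental class, and the open triangle is a bound. All values measured on both arrays lie between the dashed 2-fold lines, the value behind the Meg3 bound may lie past them, and Peg3, Meg3 and Gnas each have points on both sides of 0.

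By parental class, with each gene represented by its brightest measured probe set, the 4 paternally expressed genes had a median log2 ratio of 0.16 with 4 above 0. The 4 measured maternally expressed genes had a median of 0.22 with 3 above 0 and Meg3 below. The median over all 11320 measured genes was -0.01, with 49% above 0. The ranges of the classes, 0.01 to 0.49 and -0.31 to 0.54, overlapped, and the difference between the medians was not tested. For Meg3 the choice of probe set decides the sign: with the median over a gene's measured probe sets, the classes had medians of 0.24 and 0.34.

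**Figure D3:**
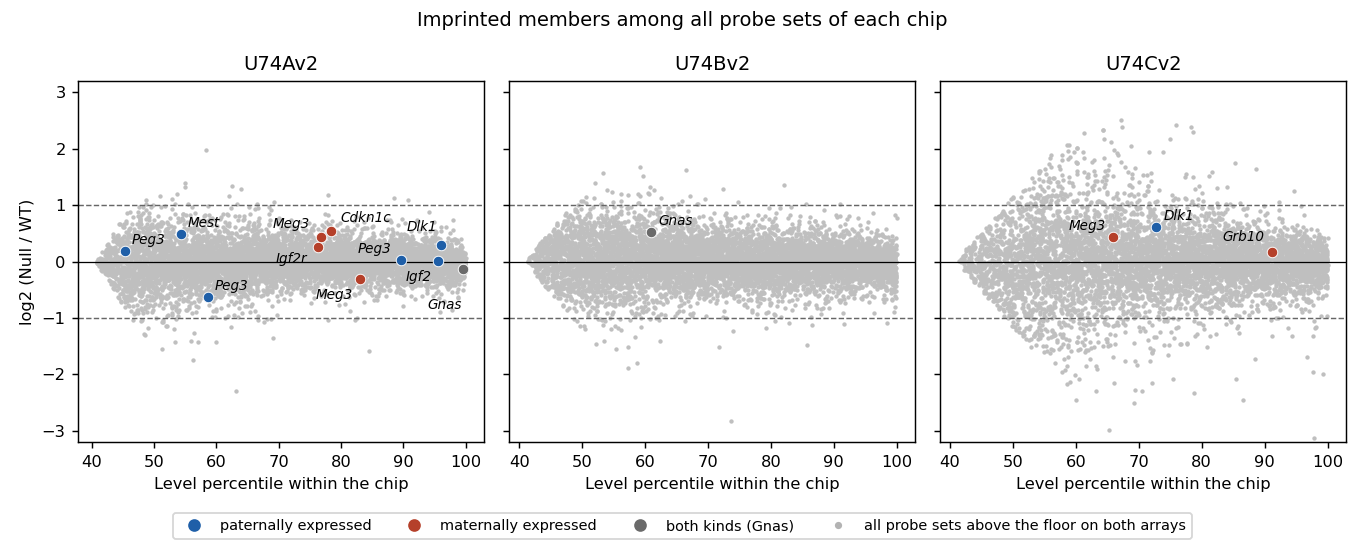
Log2 ratio of Null over WT against level percentile for all probe sets above the floor on both arrays of each chip (grey), with the imprinted members coloured by parental class. The members lie within the grey cloud on each chip, and the cloud of U74Cv2 is wider than those of U74Av2 and U74Bv2.

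Other imprinted genes lay on both sides of 0. Of 24 further paternally expressed genes 21 were on the chips and 11 were measured, with a median of 0.15 and 7 above 0. None was 2-fold different. The brightest were Plagl1, a zinc finger regulator of growth genes, at 0.15, Mcts2 at 0.20 and Airn, the noncoding RNA that silences the paternal Igf2r copy, at -0.12. A dimmer Plagl1 probe set, on U74Bv2, stood at -0.40 at a spread of 0.35. Without U74Cv2 the median of this list was -0.01 over 6 genes.

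Of 21 further maternally expressed genes 17 were on the chips and 12 measured, with a median of -0.14 and 5 above 0. Ube3a, a ubiquitin ligase imprinted in neurons, was 2-fold different. It read 607.8 in Null and 243.1 in WT on U74Bv2, a log2 ratio of 1.32 at a spread of 0.35, while its probe set on U74Av2 gave 0.26, within the spread of 0.35. Another on U74Bv2 read 224.5 in Null and 144.7, under the floor, in WT. The brightest of this list were Slc22a18, a transporter, at -0.43, Ascl2, a basic helix-loop-helix factor of the placenta, at 0.17, and the tetraspanin Cd81 at -0.16. Mirg, a microRNA-bearing noncoding RNA of the Dlk1 and Meg3 domain, is named here after its values were seen. In 1 probe set it read 804.4 in Null and 112.8, under the floor, in WT, at least 6.38-fold higher in Null. The probe set of Mirg above the floor on both arrays gave 0.21, at 146.4 in Null and 124.1 in WT. Both of these probe sets are on U74Cv2, and their suffix can mark sharing between transcripts. The Mirg probe set on U74Bv2 read 50.8 in Null and 64.7 in WT, under the floor on both arrays.

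The genes around the members were also set beside them, a set chosen after the values were seen. Of the other imprinted genes, 18 had at most 20 annotated genes between them and a member, and 11 of these were measured, 3 above 0 and 8 below, with a median of -0.16. Of the genes whose nearest member was Cdkn1c, 7 of 8 were measured, 1 above 0 and 6 below, with a median of -0.24. Ascl2, at 0.17, and Ins2, at -0.56, lie nearer to Igf2 and were not counted there. Among all measured genes 49% were above 0. Phlda2, which restrains placental growth, stood at 0.79, beside 0.54 for Cdkn1c itself. Nap1l4, a histone chaperone, stood at -0.90 at a spread of 0.26, and the potassium channel gene Kcnq1 at -0.28, within the spread of 0.35. Slc22a18 stood at -0.43 in its brightest probe set, on U74Cv2, but at -0.03 on U74Av2. Near Meg3, Rtl1, a retrotransposon-derived gene of placental capillaries, stood at 0.80. Genes of 1 imprinted domain thus lay on both sides of 0.

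In their brightest probe sets the measured genes of imprint establishment, upkeep and erasure had ratios above 0, as had 49% of all measured genes. Of 16 listed 15 were on the chips and 11 measured, 11 above 0, with a median log2 ratio of 0.27 and none 2-fold different. The brightest were Trim28, a corepressor that protects imprints, at 0.01, Dnmt1, which copies methylation at replication, at 0.12, and Dnmt3b, which methylates unmarked DNA, at 0.31. A dimmer probe set of Arid4b, a chromatin protein, stood at -0.05, and another read 147.8 in Null, under the floor, and 245.3 in WT, both on U74Bv2. The hybridisation controls had medians of 0.24 to 0.29 on the same arrays, and their part in this median was not tested. Of 14 partners of IGF signalling 12 were on the chips and 11 measured, 4 above 0, with a median of -0.08. The receptor Igf1r stood at -0.36 in its brightest probe set, on U74Cv2, but at 0.45 on U74Av2 and at 0.49 and 0.19 on U74Bv2. Its ligand Igf1 stood at -0.28 in its brightest probe set, on U74Bv2, but at 0.21 and 0.07 on U74Av2. Igf2bp1, which binds the Igf2 transcript, stood at -0.02. Restricted to U74Av2, the list had a median of 0.21 over 8 genes.

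Some markers of the labelled germ cells and some of somatic cells of the testis were strong in this RNA. In the brightest probe set of each list, Sertoli markers reached the 99.6th percentile on both U74Av2 arrays. Germ cell markers there reached the 98.6th in Null and 98.4th in WT, and fibroblast markers the 98.6th in Null and 97.6th in WT. On U74Bv2 germ cell markers reached the 99.1st in Null and 99.6th in WT, and peritubular myoid and smooth muscle markers the 99.8th and 99.9th. The latter came from a Mylk probe set, while Des and Cnn1 of the same list lay under the floor on U74Av2. Macrophage markers reached the 99.4th in Null and 99.6th in WT on U74Cv2, in a Laptm5 probe set whose suffix can mark sharing between transcripts. On U74Av2 they reached only the 84.1st in Null and the 86.1st in WT. On U74Av2 the 16 fibroblast and mesenchymal probe sets summed to 26856 in Null and 20074 in WT, a log2 ratio of 0.41. The single fibroblast probe set on U74Cv2 gave -0.54. The single one on U74Bv2 lay under the floor on both arrays and gives no ratio. The 8 germ cell probe sets of U74Av2 summed to 16766 in Null and 13803 in WT, a ratio of 0.27, while the summed germ cell ratio was -0.32 on U74Bv2 and -0.62 on U74Cv2. Bright probe sets weigh most in such sums. On U74Av2 Dazl stood at 0.56 in its brighter probe set but at -0.32 in the dimmer, and Stra8 at -0.18. Ddx4, Kit, Sall4 and Uchl1 there stood at 0.56, 0.31, 0.27 and 0.14. On U74Bv2 Tex101 and Gfra1 stood at -0.53 and -0.22, but Sall4 and Mael at 0.63 and 0.81. On U74Cv2 Sall4 stood at -1.32, but Ddx4 and Gfra1 at 0.25 and 0.22. Of the measured genes on these lists, 6 of 9 fibroblast, 6 of 9 germ cell, 1 of 10 Sertoli and 1 of 6 Leydig genes had ratios above 0. On U74Av2 the 13 Sertoli probe sets summed to 44195 in Null and 50860 in WT, a ratio of -0.21. The 14 Leydig probe sets there summed to 7093 in Null and 8819 in WT, a ratio of -0.32. On U74Bv2 and U74Cv2 the summed Sertoli ratios were 0.04 and 0.11, and the single Leydig probe set of each gave 0.27 and -0.17. No marker value was 0 on these chips. In bulk RNA fewer cells of a type and less RNA per cell cannot be told apart, and the part of these cells in the values of the imprinted genes was not tested. The targeted gene Zbtb16 read 158.1 in Null and 770.2 in WT on U74Av2, a log2 ratio of -2.29, and 510.8 in Null and 1156.8 in WT on U74Cv2, a ratio of -1.20. Its second probe set on U74Av2 was at the floor on both arrays, and whether the probes lie in the disrupted part is not known.

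**Figure D4:**
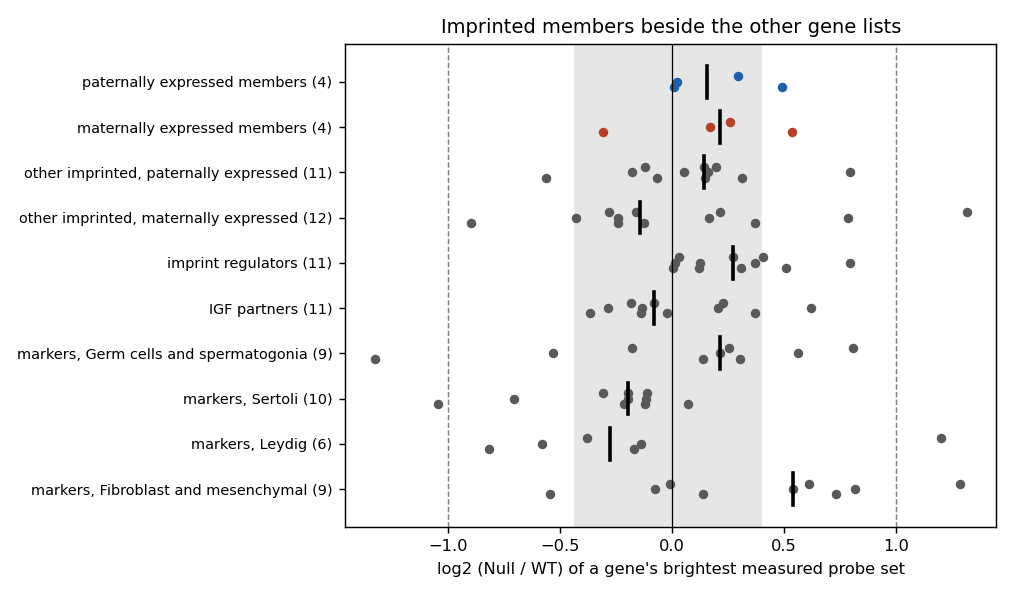
Log2 ratio of Null over WT of each gene's brightest measured probe set, for the imprinted members by parental class, the other lists and 4 marker lists (number of genes in brackets); the black bar is the median, the grey band the 10th to 90th percentile of all measured genes and the dashed lines 2-fold. The member medians are 0.16 (paternally expressed) and 0.22 (maternally expressed), and the fibroblast markers, at a median of 0.54, run from -0.54 to 1.29.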

How the data were processed

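The deposited values are linear intensities, 1 per probe set and array, and per the labels the 6 arrays are 1 Null and 1 WT array on each of 3 chips. The sources used here do not name the software or background correction. With 2% of the intensities trimmed at each end, every array averaged 500.1 to 500.3, so the authors' values had been scaled array by array. Gene symbols came from GEO's platform annotation, and the Entrez identifiers of 9 of 9 genes matched the same symbol in RefSeq (GRCm38.p6), used for names and neighbours only. The members, lists and settings were chosen with earlier results of these data known. The genes named from a list are those 2-fold different above the floor on both arrays and the 3 brightest.

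Chips were kept separate. After the 66 control probe sets of a chip were removed, Null was divided by the median ratio over probe sets above the 50th percentile of mean rank (log2 shifts of 0.00 to 0.02). Values under the 40th percentile were raised to it (98.3, 165 and 124), and log2 of Null over WT was taken. Where only 1 array was under the floor the ratio is a bound. The spread comes from pairs of probe sets of 1 gene: the scaled median absolute deviation of the differences in their log2 ratios over the square root of 2, in 3 level classes. Lists use each gene's probe set of the highest level percentile that was above the floor on both arrays. No test was made, since each group had 1 array. The calculation was tested on simulated data. The tools were pandas 2.3.3, numpy 2.4.6, statsmodels 0.14.6, scipy 1.17.1 and matplotlib 3.10.9 under Python 3.11.15. Alternatives were no rescaling, quantile and loess normalization, floors at the 20th and 60th percentiles and none, other thresholds, probe sets without a suffix, the median per gene, and fewer chips.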

Additional observations from a re-analysis of the deposited data

Results flagged for a closer look

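The probe set on U74Av2 annotated with both Mir675 and H19 entered no comparison, since it names 2 genes, and its signal was higher on the Null array. It read 3105.1 in Null and 2293.2 in WT, a log2 ratio of 0.43 at a spread of 0.15. It stood at the 95.9th percentile of the Null array and the 94th of the WT array. The hairpin of Mir675 lies inside the annotated span of H19, so by the annotation the probes lie within that span. The annotation does not separate the 2 genes further, and the difference has no replicate check.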

How the results depend on the processing

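No paired analysis was possible because each genotype had 1 array per chip, and no array could be left out for the same reason. All 16 member probe sets with a ratio or a bound kept their sign in the 93 values that no rescaling, quantile, loess and the other floors gave (3 further ones, at the higher floor, gave no value), and 3 of these values moved by at least the spread. They were -1.77 for the Meg3 probe set at the floor in Null with the floor at the 20th percentile or none, and -0.20 for the Peg3 probe set of -0.63 with the floor at the 60th. A different floor cannot reverse a sign, and leaving out the rescaling undid log2 shifts of only 0.00 to 0.02. The kept signs are therefore informative mainly for quantile and loess normalization. The count of member probe sets past 2-fold with no floor was 3 on U74Av2 and on U74Bv2 and 2 on U74Cv2, all but 1 with both values under the floor used, and with a 20th percentile floor 1 on U74Cv2. At 1.5-fold it was 1 on U74Av2 and 2 on U74Cv2. Class medians ranged from 0.03 to 0.29 (paternal) and 0.21 to 0.34 (maternal). The median of the IGF partners was 0.21 with U74Av2 alone, where 8 genes remain, and 0.01 with the median per gene, and that of the other paternally expressed genes was -0.01 without U74Cv2 and with U74Av2 alone. The medians of the imprint regulators (0.20 to 0.31), of the other maternally expressed genes (-0.24 to -0.12) and of the genes near the members (-0.20 to -0.12, and -0.24 to -0.16 near Cdkn1c, both added after seeing the data) kept their sign under each of these. Signal under the floor, as for Grb10 on U74Av2 and Meg3 on U74Bv2, gives no direction.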
